A study of Mus musculus with 6 samples.

Results

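The clustered protocadherins are cell-surface adhesion proteins encoded by tandem gene copies in 3 neighbouring clusters, alpha, beta and gamma, on mouse chromosome 18. The 58 genes of these clusters (14 alpha, 22 beta and 22 gamma) were taken by name, with earlier results of these data known. Each alpha and gamma gene was read within 1 kb of the start of its own variable exon, and each beta gene over its annotated body. A gene counted as measured where at least 3 cytosines in CpGs were listed in all 6 libraries, which left 35 of 58 genes and 802 cytosines. Those are 8 of 14 alpha, 11 of 22 beta and 16 of 22 gamma genes, out of 14684 gene regions measured across the genome. The samples are genomic DNA of male germ cells of mice, profiled by reduced representation bisulfite sequencing (RRBS), which reads cytosines near fixed restriction sites. They form a group of 3 CSDS libraries, from males under chronic social defeat stress (repeated encounters with a dominant aggressor), and a group of 3 Control libraries. Strain, age, the length of the stress and the stage of the germ cells are not given in the labels. The question the design poses is whether germ cell DNA methylation differs between stressed and Control males.

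In the alpha and gamma clusters each gene contributes a variable first exon with its own promoter, and the transcript is spliced to constant exons at the far end of the cluster. Beta genes are single-exon genes with no constant part. In neurons each cell chooses a few of the alternate isoforms, a choice tied to promoter methylation and to looping by CTCF and cohesin, and the combination gives the cell a surface identity used in self-recognition. The C-type genes (Pcdhac1, Pcdhac2, Pcdhgc3, Pcdhgc4 and Pcdhgc5) are regulated apart from these and are expressed more uniformly in neurons. The deposited values are methylation only, so expression was not measured.

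Each library listed between 2420308 and 3156788 cytosines, with a median coverage of 44 to 50 reads. The mean level over the 2206320 cytosines used was 42.6, 39.5 and 39.7% in the CSDS libraries and 43.2, 43.4 and 43.1% in the Control libraries. The median share read as C at 27 mitochondrial CpG cytosines, where little methylation is usually assumed, was 8.50, 4.41 and 4.53% in the CSDS libraries and 8.90, 8.84 and 10.04% in the Control libraries. CSDS replicates 2 and 3 thus stand apart from the other 4 libraries, and values corrected for this share are given beside those as deposited. The labels do not say that replicates come from separate animals, so p-values measure only the spread between these samples. The regions of all 10 germ cell marker genes examined, known for promoters that are methylated in somatic cells, lay between 13.3% (Dazl) and 23.1% (Tex101) as means over the 6 libraries.

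The 35 measured genes lie within 36929285 to 37842873 on chromosome 18 (GRCm38), which runs from 1 kb before the first gene start to 1 kb after the last gene end. The genes without enough common cytosines are Pcdha1, Pcdha2, Pcdha6, Pcdha7, Pcdha9 and Pcdha10 in the alpha cluster and Pcdhb4 to Pcdhb11, Pcdhb14, Pcdhb19 and Pcdhb21 in the beta cluster. In the gamma cluster they are Pcdhga6, Pcdhga7, Pcdhga12, Pcdhgb6, Pcdhgb8 and Pcdhgc5. Just under the minimum, Pcdhgc5 had 2 cytosines at 100, 96.6 and 95.1% in CSDS and 93.8, 100 and 100% in Control libraries. Pcdhb7 had 1 cytosine, at 35.6, 38.0 and 32.1% in CSDS and 51.4, 31.8 and 31.8% in Control libraries. Just inside it were Pcdhb12 and Pcdhb13 with 3 cytosines each. Reads summed over a gene's cytosines ran from 46 to 7853 per library, the lowest for Pcdhgb1 and the highest for Pcdhgc3.

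Most single cytosines in these genes were hardly methylated. A minority read above 80%, and most of these were a single strand of CpGs whose strands disagree, as described below. Of the 802 cytosines, 81.3% had a mean level under 20% over the 6 libraries, 11.2% lay between 20 and 80%, and 7.48% lay above 80%. Across all cytosines used, the shares were 53.6, 11.3 and 35.1%. Averaged per gene, the levels ran from 8.37% at Pcdhac2 to 78.0% at Pcdhb13, and 21 of 35 genes fell between 20 and 80%, against 12.9% of all gene regions. The other 14 genes were under 20%, against 78.1% of all regions. These backgrounds are not like for like. The 21 include all 11 measured beta genes, read over their bodies, while other genes were read at the end with more cytosines. Of other gene bodies of like length, 33.0% lay between 20 and 80%.

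Many of the middle values went with CpGs whose strands disagree. A CpG can be read on both strands, and in the protocadherin genes 63 of 336 CpGs read on both (18.75%) differed between strands by at least 50 points in the mean over the 6 libraries, against 8.06% of all 903591 such CpGs. The higher strand had a median of 96.9% and the lower strand a median of 10.1%. The reverse strand was the higher one at 34 of these CpGs and the forward strand at 29, and 53 of the 63 kept a difference of at least 50 points in every library. From a CpG with the higher reverse strand to the next with the higher forward strand the median distance was 92.5 bases, against 103 bases over all CpGs. Such CpGs occurred in 29 of the 35 genes. The files do not mark restriction sites, whether bases filled in at fragment ends were trimmed is not given in the sources used here, and the part of such bases was not tested. Levels are therefore given with and without these CpGs, a choice made after the values were seen.

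Without them, 33 genes kept at least 3 cytosines, 674 in all, and 27 of the 33 were under 20%, against 85.6% of regions treated likewise. The 6 genes left between 20 and 80% (background 4.98%) were Pcdhb13 at 78.0%, Pcdhb12 at 42.5%, Pcdhga4 at 23.6%, Pcdhb20 at 23.0%, Pcdhb17 at 21.4% and Pcdhga9 at 20.7%. Of these, 4 are beta genes read over their bodies, whereas the background is of gene ends. The median gene stood at 12.2%, against 8.97% over all regions. By cluster, the median gene stood at 10.2% in alpha, 15.5% in beta and 12.1% in gamma.

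**Figure D1:**
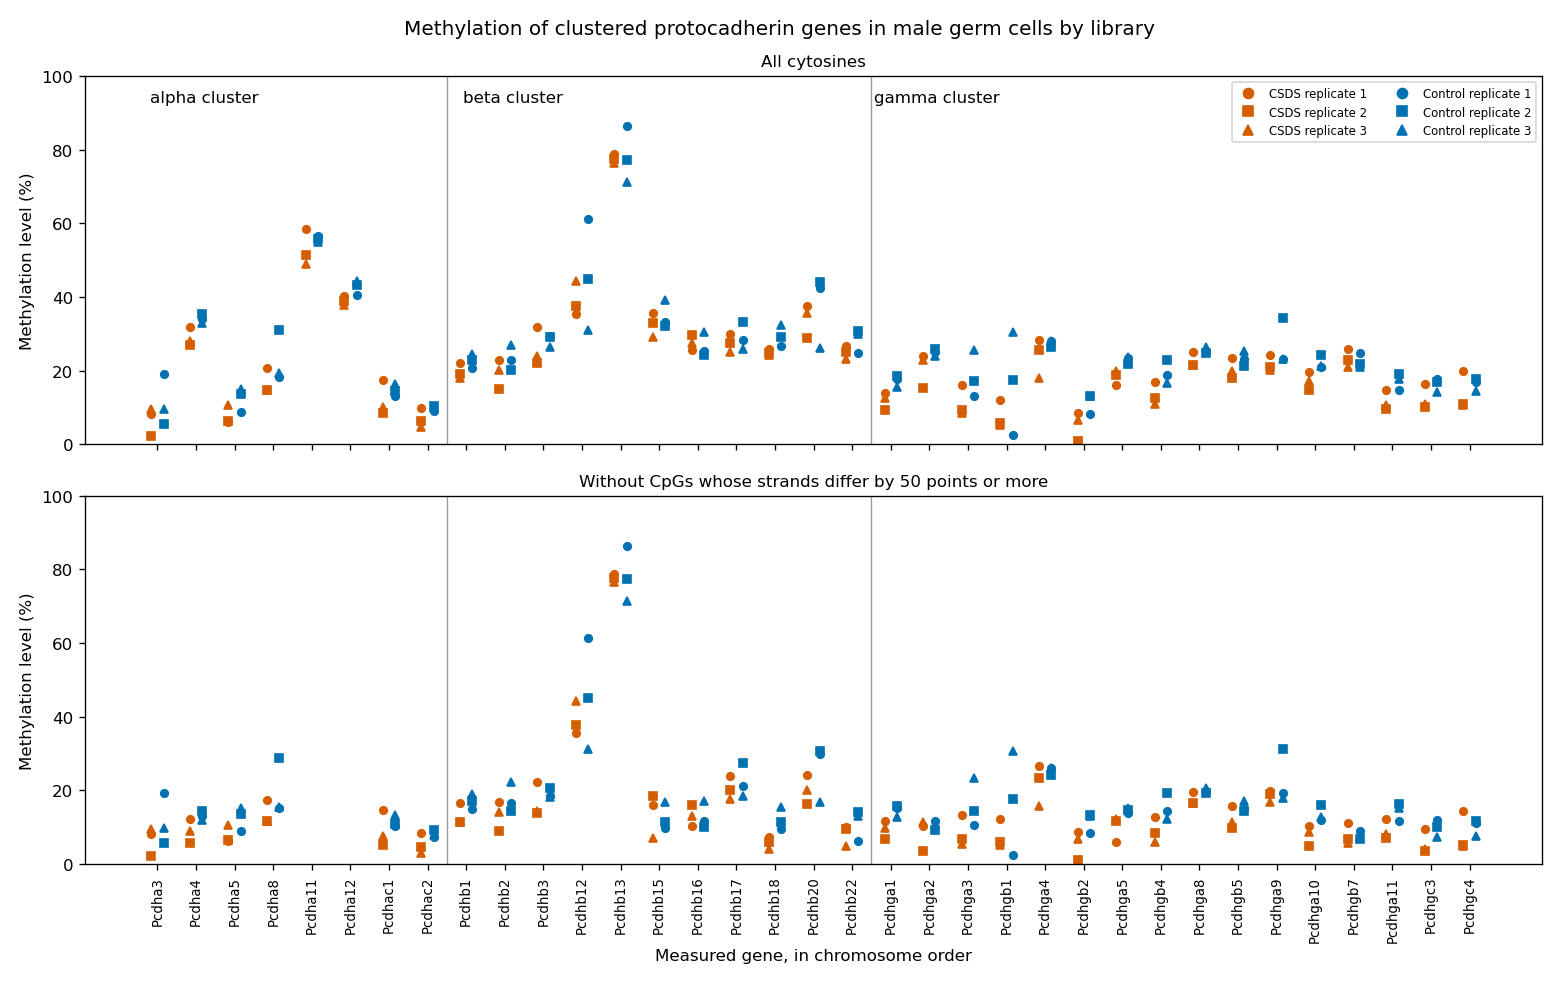
Methylation level (%) of each of the 35 measured genes in each library, in chromosome order, with CSDS libraries left of Control libraries. The upper panel uses all cytosines, with 14 of 35 genes under 20%. The lower panel leaves out CpGs whose strands differ by at least 50 points. There 27 of 33 genes lie under 20%, and Pcdhb13 stands at 78.0%.

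The clearest example of the strand pattern is a 92-base segment found in 5 beta genes. It starts 1916 bases after the start of Pcdhb15, and 1969, 1883, 1899 and 1867 bases after the starts of Pcdhb16, Pcdhb17, Pcdhb18 and Pcdhb22. In each gene the reverse strand of the left-hand CpG read 89.2 to 99.5% and the forward strand of the right-hand CpG read 91.8 to 99.0%, while the partner strands read 7.27 to 15.2%. The 4 to 8 cytosines inside averaged 13.2% in Pcdhb15, 13% in Pcdhb16, 10.2% in Pcdhb17, 8.97% in Pcdhb18 and 9.59% in Pcdhb22. These genes are close copies, so the segments are not independent, and reads may have been assigned to the wrong copy. In Pcdhb15, Pcdhb16, Pcdhb18 and Pcdhb22 the segment is all that was measured.

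**Figure D2:**
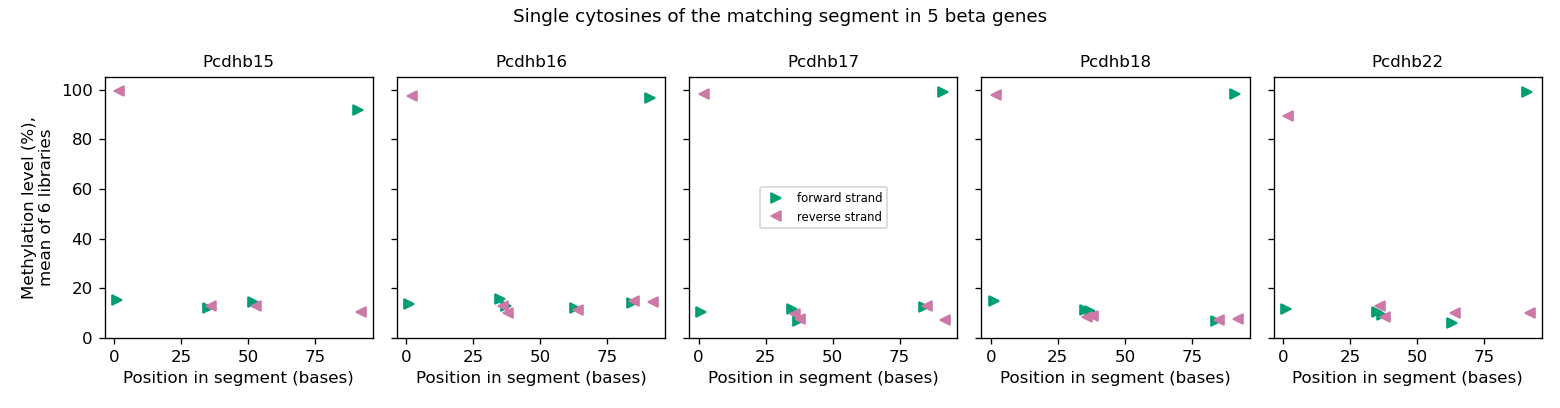
Mean level (%) over 6 libraries of each cytosine against its position in the 92-base segment of 5 beta genes, forward strand (right-pointing) and reverse strand (left-pointing). In every gene the outer CpGs have 1 strand at 89.2% or above, and all other cytosines are under 20%.

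In the alpha cluster, 8 genes could be read and none was called between groups. The alternate isoforms Pcdha11 and Pcdha12 were highest as deposited. Pcdha11 read 58.6, 51.5 and 48.9% in CSDS and 56.6, 55.7 and 54.96% in Control libraries, and Pcdha12 read 40.3, 39.0 and 37.8% against 40.6, 43.3 and 44.4% in Control. All 4 cytosines of Pcdha11 belong to CpGs with disagreeing strands, and so do 4 of 6 in Pcdha12, so neither gene can be given without them. Pcdha4 read 31.8, 26.9 and 28.2% in CSDS and 34.0, 35.3 and 33.0% in Control libraries. The groups did not overlap in 2 of 8 alpha genes, Pcdha4 and Pcdha12, both lower in CSDS (35.5% of all regions), with differences of -5.16 and -3.67 points (adjusted p = 0.457 and 0.403 by the quasi-binomial test). Leaving out its disagreeing CpGs put Pcdha4 at 10.99%.

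The other alternate alpha genes were low and varied within both groups. Pcdha3 read 8.13, 2.19 and 9.47% in CSDS and 19.2, 5.65 and 9.62% in Control libraries, from 4 cytosines. Pcdha5 read 6.09, 6.46 and 10.6% in CSDS and 8.85, 13.7 and 15.2% in Control libraries. Pcdha8 read 20.6, 14.7 and 14.7% in CSDS and 18.3, 31.0 and 19.3% in Control libraries, where 1 Control library carried most of the difference of -6.21 points (-2.14 without Control replicate 2). In all 3 genes the groups overlapped.

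In the beta cluster all 11 measured genes lay above 20% as deposited, from 21.2% at Pcdhb1 to 78.0% at Pcdhb13. Bodies of 1507 other genes of like annotated length (2340 to 5271 bases) had a median of 17.9%, and 33.0% of them lay between 20 and 80%. Pcdhb13 (37442517 to 37446209) read 78.8, 77.6 and 76.5% in CSDS and 86.4, 77.3 and 71.3% in Control libraries. Its neighbour Pcdhb12 (37435621 to 37438654) read 35.5, 37.7 and 44.3% in CSDS and 61.3, 45.0 and 31.2% in Control libraries. Both rest on 3 cytosines, 324 to 370 bases and 434 to 541 bases after the start, and the Control libraries of each span those of CSDS. None of these cytosines belongs to a CpG with disagreeing strands by the 50-point rule, though the CpG of Pcdhb13 that was read on both strands stood at 98.2% on the forward and 65.6% on the reverse strand. With 3 cytosines each, both genes hold a cytosine read on a single strand, which the rule could not flag. No other of the 33 genes was above 25% when such CpGs were left out.

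No other beta gene was called either. Pcdhb1 read 22.0, 19.04 and 17.97% in CSDS and 20.9, 22.9 and 24.6% in Control libraries, and Pcdhb2 read 22.9, 15.1 and 20.2% against 22.9, 20.2 and 27.1% in Control. Pcdhb22 read 26.7, 25.0 and 23.2% in CSDS and 24.9, 30.8 and 29.9% in Control libraries. Pcdhb18 was the only 1 of 11 beta genes without overlap, against 35.5% of all regions lower in CSDS without overlap, with 25.9, 24.7 and 24.4% in CSDS and 26.8, 29.2 and 32.4% in Control libraries (-4.42 points, adjusted p = 0.280 by the quasi-binomial test). Pcdhb16, at +1.03 points, was the only beta gene with a higher CSDS mean.

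Within Pcdhb17 and Pcdhga4, with disagreeing CpGs left out, separate stretches stood at different levels in every library. In Pcdhb17, 17 cytosines at 811 to 1154 bases read 27.6, 24.1 and 21.7% in CSDS and 23.2, 33.0 and 22.8% in Control libraries. The 6 cytosines at 1917 to 1967 bases read 13.3, 8.82 and 5.53% in CSDS and 15.2, 11.4 and 6.64% in Control libraries. In Pcdhga4, 22 cytosines at 763 to 868 bases read 21.9, 16.8 and 10.9% in CSDS and 20.2, 17.3 and 21.2% in Control libraries. A stretch of 8 cytosines starting 937 bases after the start read 39.0, 41.4 and 29.0% in CSDS and 41.9, 42.9 and 39.0% in Control libraries, above the first stretch in all 6 libraries. The bounds of these stretches were set after their values were seen, so they are a description.

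In the gamma cluster the 16 measured genes ran from 8.48% at Pcdhgb2 to 25.7% at Pcdhga4. The median gene read 18.2, 13.6 and 14.9% in CSDS and 19.97, 21.5 and 22.2% in Control libraries, a difference of -5.66 points with no overlap between groups. It was -2.99 points at a coverage minimum of 20, and -4.70 points with overlap when disagreeing CpGs were left out. The genome showed the same order, with the median region at 14.2, 9.57 and 10.1% in CSDS and 14.9, 15.4 and 15.01% in Control libraries (-3.82 points). After correction for the mitochondrial share the gamma median was 10.6, 9.64 and 10.8% in CSDS and 12.2, 13.9 and 13.5% in Control libraries (-2.83 points, again without overlap), against -0.622 points for the median region, whose groups then overlapped. With disagreeing CpGs also left out, the corrected gamma difference was -1.50 points and the groups overlapped. No test was made of this median, since it is a score over chosen genes.

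Gamma genes of the A and B subfamilies, the alternate isoforms, were examined apart from the C-type genes. The corrected difference of the subfamily median was -3.34 points for 9 gamma-A genes and -4.15 points for 5 gamma-B genes, in both without overlap, and +0.453 points with overlap for 4 C-type genes. Among the 5 gamma-B genes 3 were lower and 2 higher after correction, Pcdhgb7 by 3.87 and Pcdhgb5 by 0.0515 points, and the median of their own differences was -2.90 points. With disagreeing CpGs left out as well, the subfamily median differences were -1.65 (gamma-A), -0.478 (gamma-B) and +0.988 points (C-type), all with overlap. The median of the gamma-B genes' own differences was still -2.90 points. The difference between subfamilies was not tested.

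Pcdhgb1 had the largest difference of the 35 members, -9.16 points, and a wide spread among Control libraries, with 12.1, 5.91 and 5.17% in CSDS and 2.502, 17.5 and 30.6% in Control libraries. Control replicate 1 was below and Control replicate 3 above every CSDS library, so the groups overlapped, and the gene rests on 4 cytosines with as few as 46 reads. Its difference was -16.3 points without Control replicate 1 and -2.29 points without Control replicate 3. Pcdhga3 read 16.2, 9.37 and 8.61% in CSDS and 13.2, 17.2 and 25.6% in Control libraries. Pcdhgb4 read 16.8, 12.6 and 10.9% in CSDS and 18.8, 23.0 and 16.7% in Control libraries, with an overlap of less than 1 point.

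Pcdhgb2 read 8.60, 0.976 and 6.71% in CSDS and 8.30, 13.2 and 13.1% in Control libraries. Its adjusted p was 0.265 by the quasi-binomial test and 0.00788 by limma, where 2.13% of regions had an adjusted p under 0.05, and its difference of -6.10 points was under the 10 points needed for a call. At a coverage minimum of 20 that difference was -1.68 points. Pcdhga9 read 24.3, 21.0 and 20.3% in CSDS and 23.1, 34.3 and 23.2% in Control libraries, and its difference of -4.96 points was -1.23 points without Control replicate 2. Pcdhga4 read 28.3, 25.6 and 18.1% in CSDS and 28.0, 26.3 and 27.9% in Control libraries, and its difference of -3.44 points was -0.497 points without CSDS replicate 3.

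The 4 measured C-type genes were all under 20% as deposited, with 28 to 87 cytosines each. Pcdhac2 read 9.94, 6.37 and 4.76% in CSDS and 8.98, 10.4 and 9.78% in Control libraries. Pcdhac1 read 17.4, 8.57 and 10.2% in CSDS and 13.2, 14.6 and 16.5% in Control libraries. Pcdhgc3 read 16.3, 10.2 and 11.1% in CSDS and 17.9, 17.0 and 14.1% in Control libraries, from 87 cytosines. Pcdhgc4 read 20.01, 10.9 and 10.6% in CSDS and 17.0, 17.8 and 14.4% in Control libraries. In each of the 4 genes CSDS replicate 1 lay within or above the Control range while CSDS replicates 2 and 3 lay below it, and those are also the libraries of low mitochondrial share. Corrected for that share, Pcdhac1, Pcdhac2 and Pcdhgc4 were higher in CSDS by 0.614, 0.794 and 0.709 points and Pcdhgc3 differed by -0.611 points. These differences are under 1 point, and corrected Pcdhac2 lay near 0, at 1.29% in CSDS and 0.498% in Control libraries.

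Across the 35 genes no difference was called. The group test (a quasi-binomial fit of methylated and unmethylated counts, adjusted over all 14684 regions, called at an adjusted p under 0.05 and at least 10 points) called 0 members and 0 regions in all, 0% of those tested. The lowest adjusted p of a member by this test was 0.121, which was also the lowest over all 14684 regions. At an unadjusted p under 0.05 there were 3 members, Pcdhga1 (p = 0.0273 by the quasi-binomial fit), Pcdhga9 and Pcdhga10, against 39% of all regions. Member regions held a median of 18 cytosines, against 55 over all regions. The shares of regions set beside members, here and elsewhere, were not matched for this number. Nor were they matched for the kind of region, gene body for beta genes and gene end for other genes. On the same regions limma called 46 (0.313%) and edgeR 42 (0.286%), none of them a member, and limma with the replicate number as a block called 43 (0.293%), again no member. The largest member difference was 9.16 points, so under the 10-point rule no member could be called in these runs, whatever its p. By adjusted p under 0.05 alone, limma with and without the block had 1 member, Pcdhgb2, against 1.8 and 2.13% of regions. By that measure edgeR had 0 members, against 1.73% of regions. Of single cytosines in these genes, 0 of 798 tested were called (0% of all 2182877 tested) and 79 (9.90%) had an unadjusted p under 0.05, against 10.8% of all. Without overlap, 85 of 802 (10.6%) were lower in CSDS, against 10.5% of all cytosines.

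The CSDS mean was below the Control mean in 33 of 35 genes, and so it was in 95% of all regions. The median member difference was -3.79 points, against -3.35 points over all regions. The 6 genes lower in CSDS without overlap were Pcdha4, Pcdha12, Pcdhb18, Pcdhga1, Pcdhga5 and Pcdhga10, against 35.5% of all regions, and no gene was higher without overlap, against 0.245%. Pcdhga1 read 14.1, 9.29 and 12.6% in CSDS and 17.8, 18.7 and 15.5% in Control libraries. Pcdhga5 read 16.0, 18.9 and 19.8% in CSDS and 23.4, 21.7 and 23.8% in Control libraries, and Pcdhga10 read 19.6, 14.6 and 17.1% against 21.1, 24.3 and 21.3% in Control. Corrected for the mitochondrial share, 25 of 35 genes were lower in CSDS (58.3% of regions), with a median of -1.14 points against -0.276 points over all regions. Then only Pcdha4 was lower without overlap (7.68% of regions) and none was higher (4.13%). With disagreeing CpGs left out and no correction, 30 of 33 genes were lower (94.7% of regions), 4 of them without overlap (33.5%) and 1 with an unadjusted p under 0.05 (35.8%). With the correction too, 20 of 33 were lower (51.9%), none of them without overlap, and 2 were higher without overlap, Pcdhgb7 at +3.91 and Pcdhga8 at +0.660 points (5.53% of regions).

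The number of genes with a small adjusted p rested on CSDS replicate 1. Without that library, 17 of 35 members had an adjusted p under 0.05 by the quasi-binomial test, against 78.8% of all regions, but none of the 17 reached a difference of 10 points. With the mitochondrial correction and without that library, 0 members and 0 regions had an adjusted p under 0.05.

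**Figure D3:**
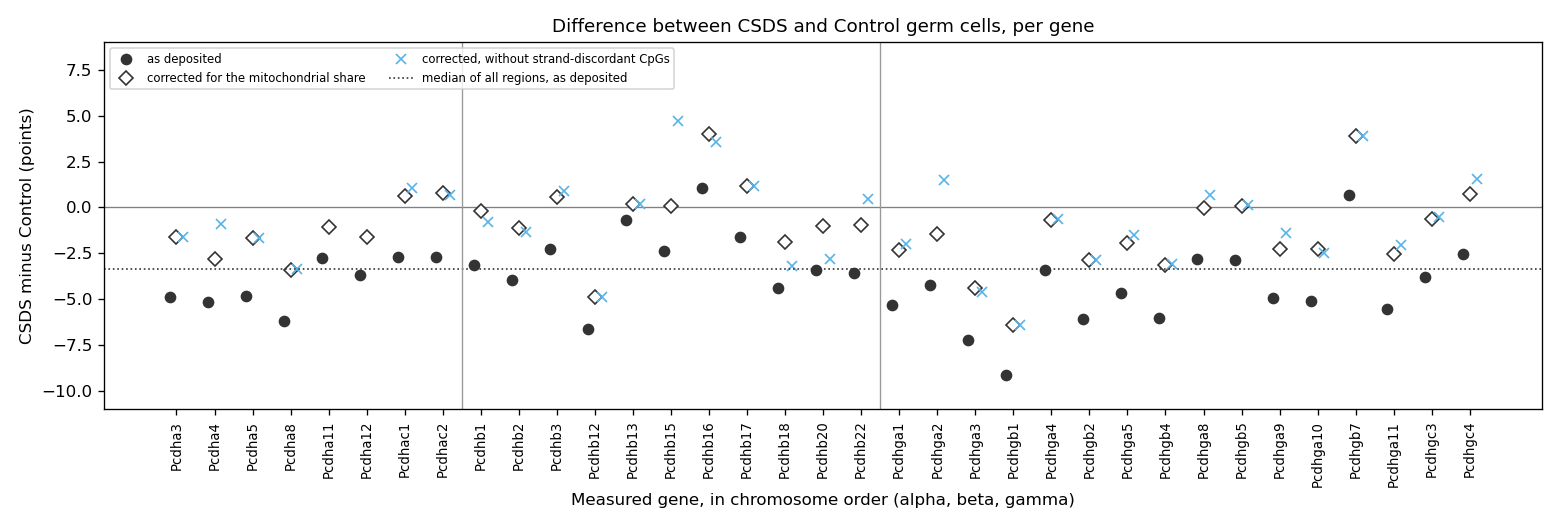
CSDS minus Control (percentage points) for each measured gene, as deposited (filled circles), corrected for the mitochondrial share (diamonds), and corrected without CpGs whose strands disagree (crosses); the dotted line is the median of all regions as deposited, -3.35 points. As deposited 33 of 35 genes lie below 0, and after correction 25 do.

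Levels changed with distance from the variable start, though not steadily. Leaving out disagreeing CpGs, gamma cytosines in the first 250 bases after the start averaged 7.91 ± 2.96% in CSDS and 11.8 ± 0.504% in Control libraries (SD, n = 3 each). Between 1000 and 1500 bases they averaged 23.8 ± 3.52% in CSDS and 26.8 ± 0.910% in Control libraries, a mean carried by 3 of 14 genes. Pcdhga7 stood at 93.7% there, Pcdhga1 at 61.8% and Pcdhga4 at 60.2% over the 6 libraries, while 10 of the 14 were under 20%. The median gene was at 15.4% there, against 10.3% for 11 genes in the first 250 bases. Between these, from 750 to 1000 bases, the median of 9 gamma genes was higher, at 23.0%. Pcdhga7, which had too few cytosines near its start, read 96.0, 94.3 and 91.2% in CSDS and 91.7, 93.6 and 95.1% in Control libraries from 1000 to 1500 bases. In the alpha cluster the first 250 bases averaged 7.23 ± 4.31% in CSDS and 10.5 ± 1.21% in Control libraries, and those from 1500 to 2500 bases 14.3 ± 5.77% in CSDS and 18.9 ± 3.19% in Control libraries. Different genes contribute to different distances, so the same genes were also compared with themselves.

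Of 12 gamma genes with data in both places, the level at 1000 to 2500 bases exceeded that in the first 750 bases in all 6 libraries in 5, and in no gene was it lower in all 6. The 5 were Pcdhga1, Pcdhga3, Pcdhga10, Pcdhgb2 and Pcdhgb7. Cytosines from 750 to 1000 bases, where the gamma median was highest, are in neither place. The median rise over the 12 genes ran from 3.85 to 9.78 points across libraries. Pcdhga1 had the widest step, to 63.8, 59.7 and 64.3% in CSDS and 66.0, 63.2 and 53.6% in Control libraries at the far stretch (5 cytosines), with a mean of 61.8% there and 11.4% near the start over the 6 libraries. Pcdhga3 had 31.6% far and 11.6% near the start. Pcdhgb5 went the other way on average, with 11.1% far and 13.9% near, lower in 5 of 6 libraries. Among 4 alpha genes only Pcdhac2 was higher at the far stretch in all 6 libraries, and so were both beta genes with data in both places, Pcdhb1 and Pcdhb2.

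**Figure D4:**
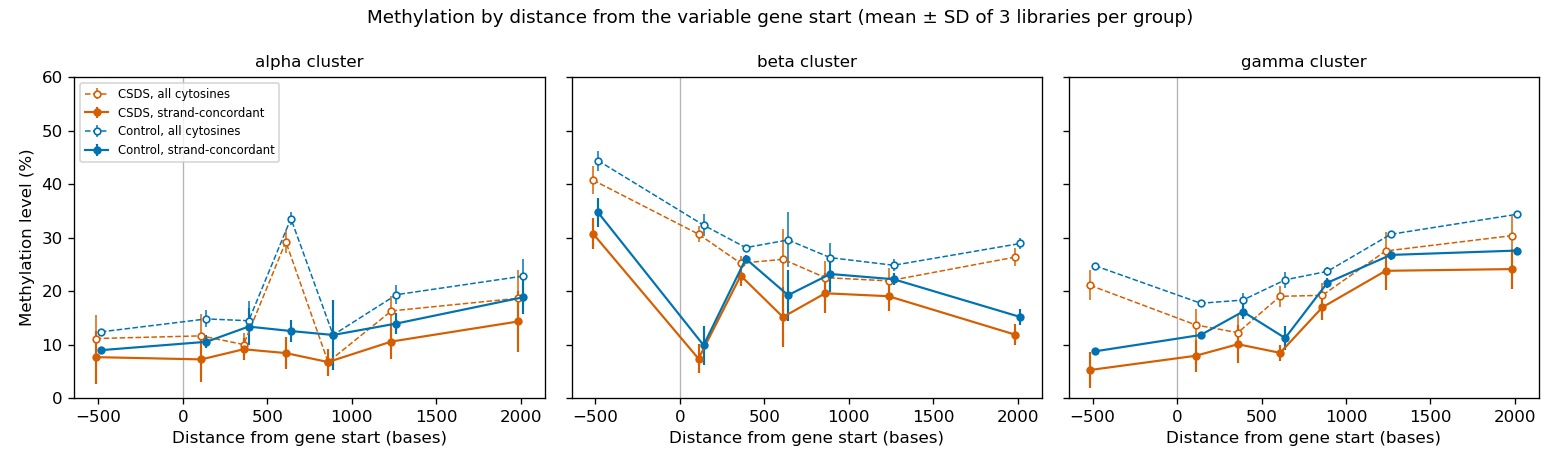
Mean methylation level (%) ± SD of 3 libraries per group against distance from the gene start (bases), for CSDS and Control, with all cytosines (dashed) and without CpGs whose strands disagree (solid). Solid gamma values stand at 7.91% in CSDS and 11.8% in Control in the first 250 bases and at 23.8% in CSDS and 26.8% in Control from 1000 to 1500 bases, where Pcdhga7, Pcdhga1 and Pcdhga4 lie above 60%.

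Levels were higher in the rest of each cluster span than in the gene regions. Cytosines in gene regions averaged 13.5 ± 2.96% in CSDS and 17.1 ± 1.52% in Control libraries for alpha, 25.1 ± 2.04% in CSDS and 27.9 ± 0.485% in Control for beta, and 15.97 ± 2.78% in CSDS and 20.4 ± 0.903% in Control for gamma (SD, n = 3 each). Outside gene regions and their first 2.5 kb, cytosines of the alpha span averaged 72.9 ± 1.78% in CSDS and 74.2 ± 0.892% in Control libraries, those of the beta span 57.4 ± 1.75% in CSDS and 59.995 ± 2.05% in Control, and those of the gamma span 46.3 ± 3.71% in CSDS and 47.6 ± 2.14% in Control (SD, n = 3 each). Within 1 kb of the shared end of the gamma genes, where the constant exons end, 22 cytosines read 26.3, 13.8 and 14.5% in CSDS and 13.3, 35.2 and 29.7% in Control libraries. That is below the gamma gene regions in 3 of 6 libraries. The groups overlapped there, since Control replicate 1 was the lowest library.

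Genes related to the clusters were read at the gene end with more listed cytosines. The largest differences were -5.45 points for non-clustered protocadherins, -5.47 for genes of isoform choice and -5.37 for neighbours of the clusters. All fall short of the 10 points needed for a call, whatever the test. Of 12 non-clustered protocadherins, single genes that encode related adhesion proteins, 9 were measured, 8 were lower in CSDS, 2 had an unadjusted p under 0.05 and 0 were called by the quasi-binomial test, limma or edgeR. Over all regions 95% were lower and 39% had such a p. Pcdh19 read 11.5, 8.93 and 5.74% in CSDS and 18.3, 12.4 and 11.8% in Control libraries, without overlap (-5.45 points). Pcdh10 read 20.2, 10.7 and 13.9% in CSDS and 21.1, 17.2 and 19.01% in Control libraries. Pcdh12, at 94.4%, was the only one of the 9 above 20%, and it was chosen for mention after its values were seen.

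Of 17 genes for the machinery of isoform choice (CTCF, cohesin with its loaders and releasers, and DNA and histone methylation factors), 11 were measured, 11 were lower in CSDS, 6 had an unadjusted p under 0.05 and 0 were called by any of these tests, beside the same 95% and 39% of all regions. Smc1a, a cohesin subunit, read 15.8, 13.2 and 12.9% in CSDS and 23.0, 17.9 and 17.4% in Control libraries. Pds5b, a cohesin-associated factor, read 10.4, 7.04 and 8.30% in CSDS and 11.5, 12.4 and 17.2% in Control libraries. Both were without overlap, as were 35.5% of all regions. After the mitochondrial correction 5 of the 11 machinery genes and 5 of the 9 non-clustered protocadherins were lower in CSDS, against 58.3% of all regions.

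Of 5 neighbours of the clusters, 3 were measured, 3 were lower in CSDS (95% of all regions), 1 had an unadjusted p under 0.05 (39%) and 0 were called. Hdac3, a histone deacetylase gene, read 16.1, 11.6 and 13.2% in CSDS and 20.6, 18.8 and 17.5% in Control libraries. Diaph1, which encodes a formin, read 10.1, 6.76 and 6.70% in CSDS and 12.9, 12.7 and 12.4% in Control libraries. Both were without overlap, as were 35.5% of all regions, and their corrected differences were -2.42 and -1.58 points.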

How the data were processed

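RRBS libraries were made with the Zymo-Seq RRBS kit from DNA extracted with a DNeasy kit, per the labels' protocols. Trim Galore 0.5.0, Bismark 0.20.0 and GRCm38 are named in the submitters' processing notes. The deposited tables give, per the file headers, the read count behind each CpG cytosine (its coverage) and what percent of that count shows C or T. Percent times coverage count gave whole numbers to within 1e-06, which were used as methylated and unmethylated counts. The lowest listed coverage is 10. Handling of duplicates and the conversion rate are not given in the sources used here. No molecular identifiers are named, so coverage counts reads, not molecules.

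Of 2210988 cytosines listed in all 6 libraries, 4668 in the top 0.1% of coverage were left out. A region's level is the mean percent over its cytosines. The gene table (GRCm38.p6) has no strand or exons. In the alpha cluster 13 of 14 genes, and in the gamma cluster 21 of 22, share their higher coordinate to within 20 bases (not Pcdha6 and Pcdhgb8), so the lower one was taken as the start, and fusion genes were not used. Other protein-coding genes were read 1 kb either side of the gene end with more cytosines. The quasi-binomial F test used limma 3.58.1's squeezeVar with dispersion held at 1 or above and Benjamini-Hochberg adjustment over all regions. Alternatives were limma on log2 ratios of counts plus 1 and edgeR 4.0.16 (R 4.3.3). The correction divides the unmethylated share by 1 minus the library's mitochondrial share. Levels under that share fall below 0, as for Pcdhgb1 in Control replicate 1 (-7.02%), and corrected region levels were kept so. For the tests after correction, methylated counts were instead held at 0 or above and were not rounded. The test was tried on simulated data.

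Members and lists were chosen with earlier results of these data known. Named genes are, per cluster, the 2 highest, the 2 lowest and the 4 of largest difference, all C-type genes, and 2 from each other list. Others are named for patterns seen in the values. Same-numbered libraries did not deviate together. No sequence is printed.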

Additional observations from a re-analysis of the deposited data

How the results depend on the processing

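No member region was called under any alternative run. In the limma, edgeR and corrected runs on all 6 libraries the 10-point rule fixed this in advance. The largest member difference there was 9.16 points, or 6.41 points with the correction. No member cytosine was called in the runs that tested single cytosines, which did not include limma or edgeR. The count over all regions was 46 with limma, 42 with edgeR, 43 with limma and the replicate block, and 0 to 187 when 1 library was left out, with 187 without CSDS replicate 1. The replicate numbers are not stated to pair samples, and same-numbered libraries correlated at -0.102, -0.0591 and -0.0115. The alpha median difference of -5.39 points ran from -7.68 to -3.89 when 1 library was left out, that of beta (-2.18) from -3.40 to -1.01 and that of gamma (-5.66) from -6.99 to -4.69. Gamma was -2.99 at a coverage minimum of 20, and beta was -0.0772 with reads summed over cytosines. The mitochondrial correction gave -2.44 for alpha, +0.533 for beta, -2.83 for gamma, -0.726 for non-clustered protocadherins, +0.189 for the choice machinery and -0.193 for the neighbours. With the correction and 1 library left out, alpha ran from -3.90 to -0.587, beta from -0.0413 to +1.31 and gamma from -3.35 to -2.47. Leaving out disagreeing CpGs as well as correcting gave alpha -0.572, beta +1.59 (higher in CSDS without overlap), gamma -1.50, non-clustered protocadherins -0.217, the machinery +0.0146 and the neighbours -0.533. Of the 11 beta genes 5 were then still lower in CSDS, and the median of their own differences was +0.165. The direction turned with the correction in Pcdhac2 (+0.794), Pcdhac1 (+0.614), Pcdhb13 (+0.165) and Pcdhgc4 (+0.709). With disagreeing CpGs also left out it turned in Pcdhac2 (+0.692), Pcdhac1 (+1.06), Pcdhb13 (+0.165), Pcdhb22 (+0.438) and Pcdhgc4 (+1.56). With 1 library left out, Pcdhb13 ran from -4.23 to +3.33 and Pcdhb12 from -13.98 to +1.06, and both turned without Control replicate 1. The rule on disagreeing strands, and the correction combined with it or with a library left out, were chosen after seeing the data. The cause of these shifts was not tested. Calls needed 10 points, and 23 of 58 genes were not measured.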
